A study of Mus musculus with 12 samples.

Results

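In the mouse prefrontal cortex, the step from the late light phase to the early dark phase was measured by setting 3 mice killed at ZT15, which is 3 hours after lights off, against 3 mice killed at ZT9, which is 9 hours after lights on. Zeitgeber time (ZT) counts hours from lights on. The 6 arrays of these mice, of 12 in the whole series, were taken by their labels, and the probe sets above a level filter were tested. The comparison itself was chosen with earlier results of these data known. All the animals were C57BL/6J mice without treatment or genetic change. They were obtained at 10 weeks of age, acclimatized and then entrained under 12 hours of light and 12 hours of dark with free access to food and water. RNA of 1 mouse was hybridized to each Affymetrix Mouse430_v2 array, and the other 6 arrays, 3 mice at ZT3 and 3 at ZT21, entered the fit to share its estimate of the spread and are given here only as a description. The brains of the ZT15 mice were removed under red light, so darkness, time of day and dissection light change together between the groups and cannot be told apart.

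Mice are nocturnal, and the hours after lights off are those in which they are most awake and active. In cortical neurons, synaptic activity switches on immediate early genes, first those of transcription factors and then those of effector proteins that act at synapses. The endoplasmic reticulum (ER) folds secreted and membrane proteins with the help of chaperones and disulfide isomerases, whose genes are induced through the ER stress response element when unfolded proteins build up. The circadian clock is a feedback loop in which the Per and Cry proteins repress their own transcription, and its parts peak at different hours in most tissues. Sleep loss is known to raise transcripts of the first of these groups, Homer1 among them, and of ER chaperones in rodent cortex.

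More transcripts passed the test upward than downward at ZT15. Of 24075 tested probe sets, those with a mean log2 intensity of at least 5 over the 12 arrays, 37 were higher at ZT15 (0.154%) and 4 were lower (0.0166%), by an adjusted p threshold of 0.05 in limma, which moderates the spread of each probe set towards that of the others. The 37 came from 30 genes with 1 symbol and 1 probe set that several histone H3 genes share, and their differences ran over 0.58 to 3.37 on the log2 scale with a median of 1.00. At a looser adjusted p of 0.20, 112 were higher (0.465%) and 33 lower (0.137%), or 236 and 142 after quantile normalization and 204 and 109 after centring each array on its median. With array weights, 60 were higher and 27 lower at 0.05, but 287 higher and 387 lower at 0.20, so that the excess upward turned. An unadjusted p under 0.05 was met by 914 higher (3.8%) and 839 lower (3.48%). The table as a whole did not lean upward, since 47% of the tested probe sets had a higher mean at ZT15 and the median difference was -0.01. In none of the 41 called probe sets did the ZT15 and ZT9 mice overlap. The same separation held for 1092 tested probe sets in the upward (4.54%) and 1213 in the downward direction (5.04%), so it is common without a call. The plot of all tested probe sets shows Homer1 far to the right of every other point.

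**Figure D1:**
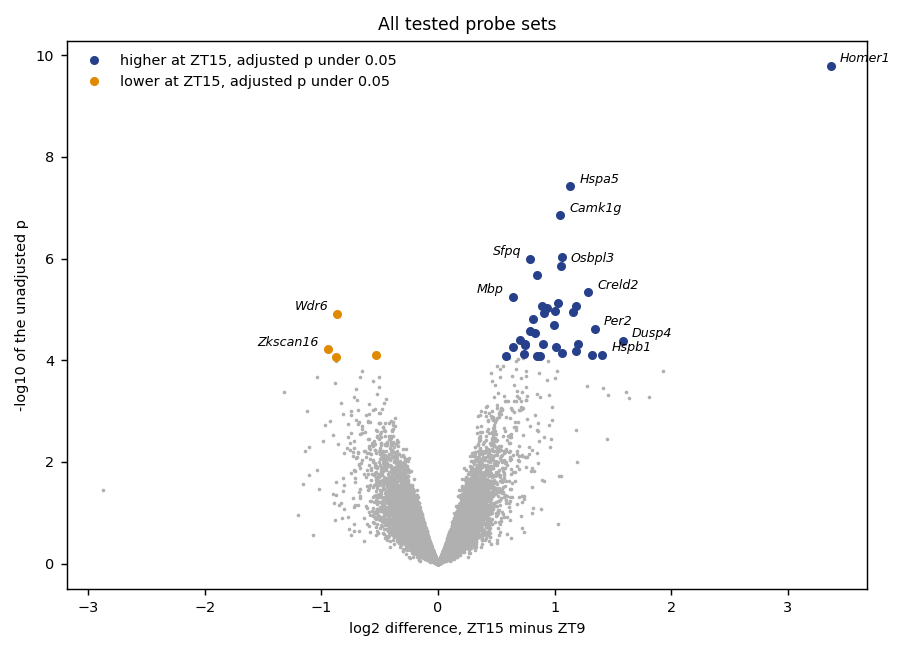
Each point is 1 of the 24075 tested probe sets, with the log2 difference (ZT15 minus ZT9) on the horizontal axis and -log10 of the unadjusted p of limma on the vertical axis. Blue points are the 37 called higher at ZT15 and orange points the 4 called lower, with Homer1 at 3.37 as the largest difference.

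The calls rest on few mice. The fit on the 6 arrays alone called 4 probe sets, 1 each of Homer1, Hspa5, Per2 and Dusp4, all higher at ZT15 and all among the 41. Leaving out 1 array at a time, 6 calls from 5 genes (Homer1, both Hspa5 probe sets, Camk1g, Sfpq and Osbpl3) were kept in all 12 fits, 35 were lost in at least 1 and 20 in at least 10, and none changed direction. The 37 higher and 4 lower fell to 23 and 1 without ZT15 replicate 1, to 6 and 0 without ZT15 replicate 2, to 13 and 1 without ZT15 replicate 3, to 21 and 1 without ZT9 replicate 1, to 17 and 1 without ZT9 replicate 2 and to 8 and 1 without ZT9 replicate 3. Omitting an array of another time point left 16 to 25 higher and 1 to 3 lower. ZT15 replicate 3 and ZT9 replicate 1 stood apart in a measure of RNA quality, the log2 ratio of the 3′ to the 5′ control probe set of Actb, at 0.84 and 0.95 against 0.67 to 0.70 in the other 4 arrays. ZT15 replicate 3 had the highest of the ZT15 values in 24 of the 37 probe sets, and without both of these arrays 15 were higher and 0 lower, with 11 of the 41 calls kept. ZT21 replicate 3, outside the 6 arrays, had a ratio of 0.88 and stayed in that fit. ZT9 replicate 3 had the lowest of the ZT9 values in 20 of the 37. Its median log2 intensity was the lowest of the 6 arrays, at 7.774 against 7.815 to 7.915. Log2 values of any pair of the 6 arrays correlated at 0.975 to 0.994 across tested probe sets.

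Homer1, which encodes a scaffold of postsynaptic glutamate receptors and whose short form is a product of neuronal activity, differed most. Its probe set 1436387_at read 11.28, 11.43 and 11.52 in the ZT15 mice, against 8.32, 7.95 and 7.87 in the ZT9 mice, on the log2 scale. The lowest ZT15 mouse lay far above the highest ZT9 mouse, and the difference was 3.37 (standard error 0.17, adjusted p = 3.88e-06 from limma), a fold of 10.3. This call was kept in every alternative. All 6 Homer1 probe sets were higher at ZT15 in every mouse, but by different amounts. One of them, 1439662_at, was called at 0.74, a call lost in all 12 fits without 1 array, and the 4 others, at 0.61 to 1.93, missed the threshold (adjusted p = 0.0512 to 0.423 from limma). Probe set 1425671_at, the next largest, read 6.65, 7.67 and 5.86 in the ZT15 mice, against 4.75, 4.75 and 4.89 in the ZT9 mice, with the ZT15 mice spread widely. Which Homer1 transcripts each probe set reads was not looked up here.

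**Figure D2:**
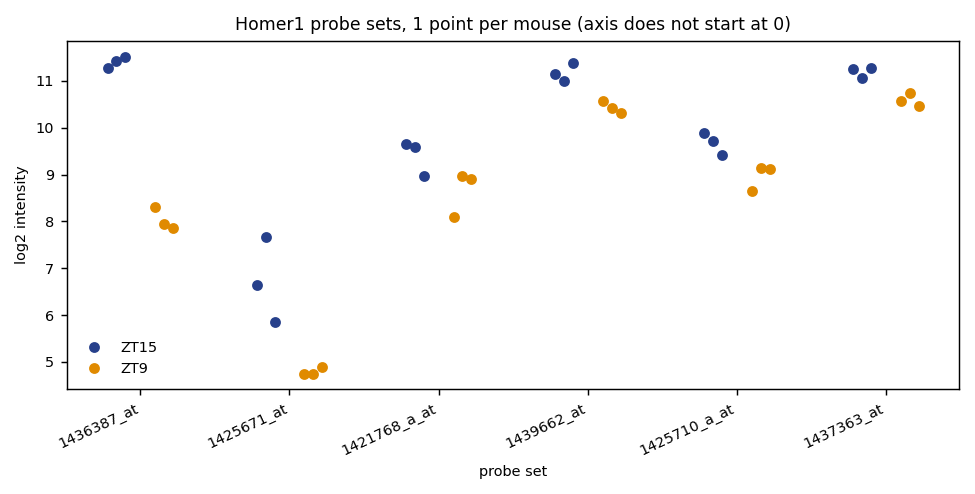
Log2 intensity (vertical axis) of the 6 Homer1 probe sets (horizontal axis) in each mouse, blue for ZT15 and orange for ZT9, ordered by difference. The ZT15 points lie above the ZT9 points in each probe set, by 3.37 in 1436387_at and by 0.61 in 1437363_at.

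Of 28 tested effector genes of neuronal activity, each taken by its brightest probe set, 24 had a higher mean at ZT15, 4 were called higher and 0 lower, and the median difference was 0.29, against -0.02 over all 11639 tested genes with 1 symbol, of which 45% had a higher mean, 22 (0.189%) were called higher and 2 (0.0172%) lower. The 4 were Camk1g, Bdnf, Nptx2 and Dusp4, and Homer1 is counted in this list by 1437363_at, which missed the threshold. The lists were made with earlier results of these data known. The study names Camk1g, Dusp4 and Homer1 from these same arrays, so the count is a description and no independent support. By real-time PCR in a separate set of mice, the study reports patterns like those of its arrays for Camk1g and Dusp4. It reports the same for Per2, Ier5, Mbp, Pdia6 and Xbp1, but not for Rasd2 and Sult4a1. Those patterns were over all its time points, and the PCR values were not examined here. Camk1g, a calcium/calmodulin-dependent kinase of neurons, read 8.92, 8.77 and 8.93 in the ZT15 mice, against 7.83, 7.76 and 7.89 in the ZT9 mice, and the difference of 1.05 (standard error 0.10, adjusted p = 0.00113 from limma) was kept without each array in turn. Bdnf, a neurotrophin released in response to activity, read 8.89, 9.17 and 9.14 in the ZT15 mice, against 8.06, 7.98 and 7.62 in the ZT9 mice. The lowest ZT15 mouse was above the highest ZT9 mouse, and the difference was 1.18 (standard error 0.16, adjusted p = 0.017 from limma). Its second probe set was called at 0.74. Nptx2, a secreted pentraxin that gathers AMPA receptors at synapses, read 8.74, 8.93 and 9.26 in the ZT15 mice, against 8.10, 7.82 and 7.53 in the ZT9 mice, a difference of 1.16 (standard error 0.16, adjusted p = 0.0173 from limma). Its spread within each time point was wide, yet the groups did not overlap. Dusp4, a nuclear phosphatase that switches off MAP kinases, read 7.76, 8.12 and 7.97 in the ZT15 mice, against 6.27, 6.46 and 6.36 in the ZT9 mice, a difference of 1.59 (standard error 0.25, adjusted p = 0.0414 from limma) and the largest of any gene by its brightest probe set.

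Among effectors that did not pass at 0.05, Vgf, a precursor of neuropeptides, read 11.99, 11.93 and 12.16 in the ZT15 mice, against 11.60, 11.50 and 11.45 in the ZT9 mice, a difference of 0.51 (standard error 0.09, adjusted p = 0.0635 from limma). Crh, the corticotropin-releasing hormone, differed by 0.87 (adjusted p = 0.141), Inhba, a subunit of activin, by 0.67 (adjusted p = 0.125) and Ptgs2, an inducible cyclooxygenase, by 1.19 (adjusted p = 0.274), each without overlap of the groups. The groups did not overlap in 12 effector genes upward and 1 downward, beside 4.65% and 5.98% of all tested genes. ZT15 replicate 3, the ZT15 array with the highest Actb ratio, had the highest ZT15 value in 24 of the 28, and without it the list's median was 0.13. Without ZT15 replicate 1 the median was 0.58. Bdnf and Nptx2 lost their call in 3 and 4 of the 12 fits without 1 array (adjusted p up to 0.082 and 0.0758), all of them ZT15 or ZT9 arrays, the second Bdnf probe set in 11 (up to 0.154) and Dusp4 in 10 (up to 0.166).

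Immediate early transcription factors had the highest median of the 20 lists, an order that rests on ZT15 replicate 3, without which its median was 0.13, below that of the ER chaperones at 0.18. Of 20 tested, 14 had a higher mean at ZT15, beside 45% of all tested genes, and the median difference was 0.46. Called higher were 2 (Egr3 and Ier5), beside 0.189% of all tested genes, and 0 were called lower. Egr3, a zinc finger factor of the early growth response family, read 11.99, 12.22 and 12.53 in the ZT15 mice, against 11.16, 11.46 and 11.14 in the ZT9 mice, a difference of 1.00 (standard error 0.15, adjusted p = 0.0255 from limma). The groups were separate, with ZT15 replicate 3 highest. A second Egr3 probe set differed by 0.08 (adjusted p = 0.952), with overlap of the groups. Ier5, an immediate early response gene, read 11.04, 11.22 and 11.57 in the ZT15 mice, against 10.37, 10.52 and 10.46 in the ZT9 mice, a difference of 0.83 (standard error 0.13, adjusted p = 0.0317 from limma), and its other 2 probe sets differed by 0.71 to 1.02 without passing. Fosl2 and Jdp2, partners in the AP-1 family, differed by 0.98 (adjusted p = 0.179) and 0.68 (adjusted p = 0.139), Crem, a cAMP-responsive factor, by 0.73 (adjusted p = 0.182) and Egr1 by 0.69 (adjusted p = 0.416). Jun went the other way, at 8.96, 9.07 and 9.83 in the ZT15 mice, against 10.11, 9.75 and 9.53 in the ZT9 mice, with the groups overlapping through ZT15 replicate 3 and a difference of -0.51 (adjusted p = 0.681). A second Jun probe set did not overlap, with the highest ZT15 mouse at 8.35 and the lowest ZT9 mouse at 8.71, and differed by -0.72 (adjusted p = 0.141), which passes at 0.20.

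In all 20 of these factors ZT15 replicate 3 had the highest of the ZT15 values. Its Actb ratio is also the highest of the ZT15 arrays, and the part of either in the list's level was not tested. Without that array the median of the list was 0.13, without ZT15 replicate 1 it was 0.81, and without both arrays of high ratio it was 0.31. Egr3 lost its call in 7 and Ier5 in 11 of the 12 fits without 1 array (adjusted p up to 0.102 and 0.102).

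**Figure D3:**
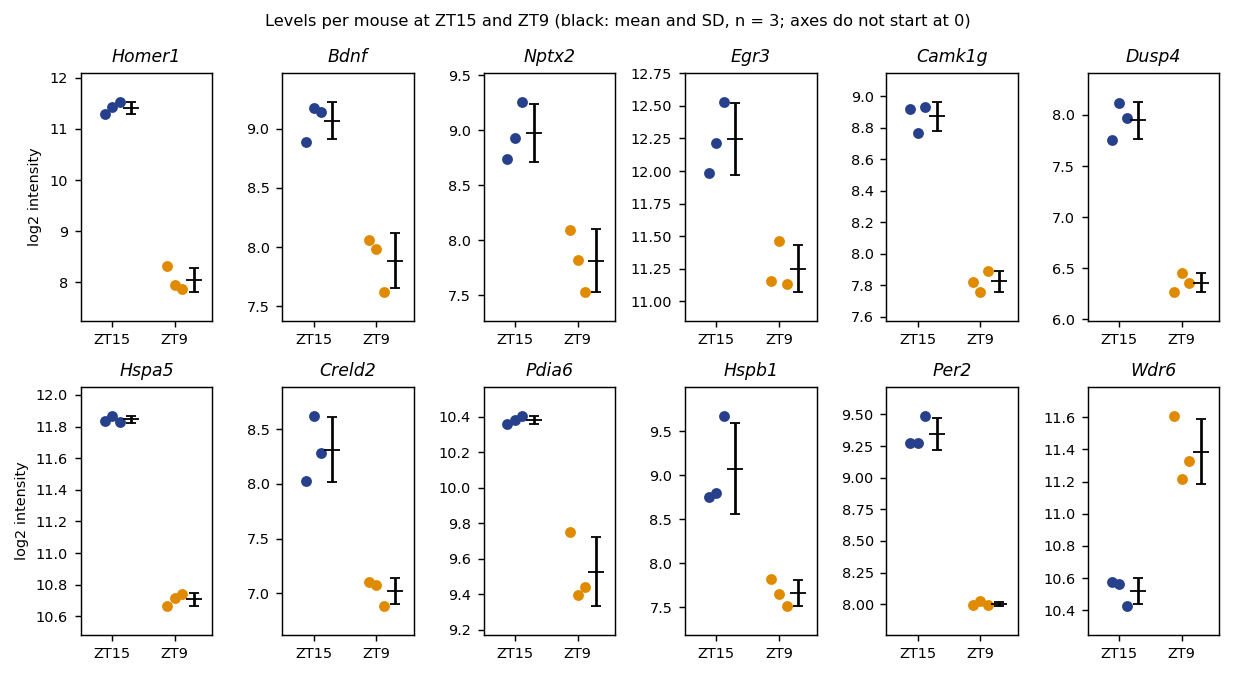
Log2 intensity of 12 called genes in each mouse, ZT15 (blue) left of ZT9 (orange), with the mean and SD of 3 mice in black and the probe set of smallest p for each gene. The groups are separate in every panel, and Wdr6 is the 1 panel in which the ZT15 mice are lower.

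Chaperones of the ER lumen formed the other main group. Of 25 tested, 18 had a higher mean at ZT15, beside 45% of all tested genes, and the median difference was 0.22. Called higher were 4 (Hspa5, Creld2, Manf and Pdia6), beside 0.189% of all tested genes, and 0 were called lower. Hspa5, also called BiP, the main Hsp70 of the ER, read 11.84, 11.87 and 11.83 in the ZT15 mice, against 10.66, 10.72 and 10.74 in the ZT9 mice by probe set 1427464_s_at. The 3 values at each time point lay very close together, and the difference was 1.14 (standard error 0.09, adjusted p = 0.000461 from limma), kept in every alternative. A second probe set was called at 1.07, and the last of the 3 differed by 0.07. Creld2, a protein of the ER induced by ER stress, read 8.03, 8.62 and 8.28 in the ZT15 mice, against 7.11, 7.08 and 6.88 in the ZT9 mice, a difference of 1.29 (standard error 0.16, adjusted p = 0.0138 from limma). Manf, a secreted ER stress protein with neurotrophic activity, read 10.35, 10.68 and 10.83 in the ZT15 mice, against 9.73, 9.28 and 9.28 in the ZT9 mice, a difference of 1.19 (standard error 0.20, adjusted p = 0.0489 from limma). ZT9 replicate 1 was the highest of its group and still below each ZT15 mouse. Pdia6, a protein disulfide isomerase, read 10.36, 10.38 and 10.41 in the ZT15 mice, against 9.75, 9.39 and 9.44 in the ZT9 mice, a difference of 0.85 (standard error 0.15, adjusted p = 0.0498 from limma).

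The calls did not extend over the whole list. Sdf2l1, a partner of Dnajb11, read 5.04, 6.36 and 6.05 in the ZT15 mice, against 4.42, 4.23 and 4.56 in the ZT9 mice, a difference of 1.41 (standard error 0.28, adjusted p = 0.112 from limma), at a low signal and with ZT15 replicate 1 near the ZT9 mice. Its means were 4.40 at ZT9, 4.99 at ZT3 and 5.14 at ZT21, and it passed the level filter of 5 only through its ZT15 mean of 5.815. Dnajb11 and Dnajc3, co-chaperones of Hspa5, differed by 0.56 (adjusted p = 0.0635) and 0.72 (adjusted p = 0.183). The abundant calcium-binding chaperones did not pass, with differences of 0.31 for Calr (adjusted p = 0.586), 0.22 for Hsp90b1 (adjusted p = 0.733) and -0.12 for Canx (adjusted p = 0.938). Sil1, a nucleotide exchange factor of Hspa5, and Dnajc10, a reductase, had lower means at ZT15, by -0.32 (adjusted p = 0.577) and -0.28 (adjusted p = 0.69), without overlap of the groups. The groups were separate in 10 members upward and 2 downward, beside 4.65% and 5.98% of all tested genes. Creld2 lost its call without ZT15 replicate 2 or ZT9 replicate 3 (adjusted p up to 0.0567), and Manf and Pdia6 in 10 of the 12 fits without 1 array (up to 0.178 and 0.179). ZT15 replicate 3 was the highest of the ZT15 arrays in 13 of the 25, and the list's median ran over 0.12 to 0.25 when 1 array was left out.

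The ER stress response element was searched for in RefSeq promoter windows (build GRCm38.p6), from 250 bases before to 50 after each start, as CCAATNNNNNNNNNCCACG on either strand. It stood in 39 of 32851 windows of all genes (0.119%) and in 0.107% of the windows of tested genes. The element was in 8 of the 26 windows of the ER chaperone list (22 genes matched) and in 3 of the 33 windows of the genes called higher (22 genes matched), which were those of Hspa5, Creld2 and Pdia6. Manf and Per2 had no entry. The element is shown in these 3 genes and, for comparison, in Hsp90b1 and Canx, which carried it and were not called. Hsp90b1 held a second element that is not printed, at -107 to -89 from the start on the opposite strand, nearer than the printed one at -212 to -194. The runs are given 5′ to 3′ on the strand of the gene, with the element in capitals.
Hspa5, chr2:34772010-34772058, plus strand: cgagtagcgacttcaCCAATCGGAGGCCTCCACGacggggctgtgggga
Pdia6, chr12:17266476-17266524, plus strand: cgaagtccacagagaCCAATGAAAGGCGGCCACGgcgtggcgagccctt
Creld2, chr15:88819505-88819553, plus strand: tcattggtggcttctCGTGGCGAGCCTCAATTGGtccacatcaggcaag
Hsp90b1, chr10:86705623-86705671, minus strand: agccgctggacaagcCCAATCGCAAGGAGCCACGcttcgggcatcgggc
Canx, chr11:50325785-50325833, minus strand: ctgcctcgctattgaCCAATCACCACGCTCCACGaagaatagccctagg
In Creld2 the element reads on the opposite strand, as CGTGG before ATTGG. Hspa5 has further CCAAT stretches upstream without the rest of these letters, as its 250 bases before the start show (chr2:34771840-34772089, plus strand).
Hspa5 upstream: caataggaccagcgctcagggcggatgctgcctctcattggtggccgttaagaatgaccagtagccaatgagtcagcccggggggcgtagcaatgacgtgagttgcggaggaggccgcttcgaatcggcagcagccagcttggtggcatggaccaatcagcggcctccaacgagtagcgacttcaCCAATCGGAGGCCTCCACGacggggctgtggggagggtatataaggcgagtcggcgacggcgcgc
The other windows of the list with the element belong to Calr, Dnajc3 and Ero1b, which differed by 0.31, 0.72 and 0.08. The 8 genes that hold these exact letters thus ran over -0.12 to 1.29, and a match is a description of the window only.

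Of 17 tested sensors and factors of the unfolded protein response, 9 had a higher mean at ZT15, beside 45% of all tested genes, and the median was 0.03. By their brightest probe sets 0 were called, which is near the shares of all tested genes, 0.189% called higher and 0.0172% lower. Xbp1, a transcription factor of this response, was called by probe set 1420011_s_at, at 11.33, 11.44 and 11.66 in the ZT15 mice, against 10.83, 10.51 and 10.40 in the ZT9 mice, a difference of 0.90 (standard error 0.14, adjusted p = 0.0433 from limma). ZT9 replicate 1 was nearest to the ZT15 mice. Its 3 other probe sets differed by 0.13 to 0.86 without passing, and the call was lost in 11 of the 12 fits without 1 array (adjusted p up to 0.145). Atf4 and Ddit3, factors of the branch that slows translation, differed by 0.46 (adjusted p = 0.537) and 0.39 (adjusted p = 0.592). Of 27 genes of ER-associated degradation and translocation, 17 had a higher mean, beside 45% of all tested genes, and 0 were called, near the same shares. The median was 0.05, with Herpud1 highest at 0.34 (adjusted p = 0.626). Other probe sets of Herpud1 and Derl2 passed at 0.20, at 0.54 (adjusted p = 0.198) and 0.51 (adjusted p = 0.183), without overlap.

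Of 29 tested heat shock proteins of the cytosol, 1 was called higher and 0 lower, beside 0.189% and 0.0172% of all tested genes. A higher mean at ZT15 was found in 24 of them, beside 45% of all tested genes, and the median difference was 0.17. Hspb1, a small heat shock protein, read 8.75, 8.80 and 9.67 in the ZT15 mice, against 7.82, 7.66 and 7.52 in the ZT9 mice, a difference of 1.41 (standard error 0.24, adjusted p = 0.0498 from limma). ZT15 replicate 3 stood well above the other ZT15 mice. Its second probe set differed by 1.81 and did not pass. Hspa1b, the inducible Hsp70, read 9.65, 10.17 and 10.98 in the ZT15 mice, against 9.33, 8.87 and 8.24 in the ZT9 mice by its brightest probe set, a difference of 1.46 (standard error 0.31, adjusted p = 0.137 from limma), and its 3 probe sets differed by 1.46 to 1.64. Chordc1, an Hsp90 co-chaperone, differed by 0.53 (adjusted p = 0.0823), Dnajb5 by 0.66 (adjusted p = 0.256) and Cryab, a small heat shock protein, by 0.73 (adjusted p = 0.306). Hspa2 was lower in each ZT15 mouse, by -0.33 (adjusted p = 0.56). ZT15 replicate 3 had the highest ZT15 value in 26 of the 29 and the list's median was 0.06 without it. Hspb1 lost its call in all 12 fits without 1 array (adjusted p up to 0.152). The heat shock element, GAANNTTCNNGAA on either strand, stood in 0.603% of all windows and in 0.501% of the windows of tested genes. In this list it stood in 7 of the 36 windows (25 genes matched), of Chordc1, Dnajb6, Hspd1, Hspe1 and Hsph1. It stood in 0 of the 33 windows of the genes called higher. The cAMP response element (TGACGTCA) stood in 1.79% of all windows, in 2.99% of the windows of tested genes and in 0 of those 33. It was in 4 of 34 effector windows and in 0 of 21 windows of the early transcription factors. For the E-box (CACGTG) the shares were 7.15% of all windows, 9.73% of the windows of tested genes and 2 of those 33, with 7 of 34 effector and 5 of 26 clock windows.

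The clock gene that passed was Per2, a repressor in the clock loop. It read 9.28, 9.27 and 9.49 in the ZT15 mice, against 7.99, 8.02 and 7.99 in the ZT9 mice, a difference of 1.34 (standard error 0.20, adjusted p = 0.0294 from limma). The values at each time point were close together and far apart between times. Its second tested probe set differed by 0.38 (adjusted p = 0.933), and the call was lost in 8 of the 12 fits without 1 array (up to 0.105). The other time points had means of 6.28 ± 0.38 at ZT3 and 7.97 ± 0.38 at ZT21 (SD, n = 3 each), so ZT9 was already above ZT3. Of the 20 tested clock genes, 16 had a higher mean at ZT15, beside 45% of all tested genes, and the median was 0.16. Per2 was the 1 called, beside 0.189% of all tested genes called higher. Cry1, the partner of Per2 in repression, read 8.17, 8.26 and 8.76 in the ZT15 mice, against 7.74, 7.80 and 7.70 in the ZT9 mice, without overlap but short of the threshold, at 0.65 (standard error 0.14, adjusted p = 0.148 from limma). Bhlhe40, another repressor, differed by 0.51 (adjusted p = 0.413) without overlap, Nfil3 by 0.45 (adjusted p = 0.633) and Arntl, an activator of the loop, by 0.36 (adjusted p = 0.643). Lower means with overlapping groups were those of Ciart at -0.38 (adjusted p = 0.733), Nr1d1 at -0.42 (adjusted p = 0.873), Dbp at -0.18 (adjusted p = 0.924) and Tef at -0.09 (adjusted p = 0.958). A second probe set of Dbp, which like Tef encodes a PAR bZIP factor, differed by -0.29 (adjusted p = 0.653) without overlap. Per1 read 8.12, 8.62 and 9.36 in the ZT15 mice, against 8.40, 8.39 and 8.40 in the ZT9 mice. Its ZT9 mice were alike and its ZT15 mice were not, with a difference of 0.30 that was -0.03 without ZT15 replicate 3. The median of the list was 0.11 without that array and 0.27 without ZT9 replicate 2.

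Genes of kinase signaling were split. Etv5, an ETS factor that responds to growth factor signaling, was called by both 1428142_at and 1450082_s_at, and the first read 11.13, 11.17 and 11.31 in the ZT15 mice, against 10.09, 10.54 and 10.31 in the ZT9 mice, a difference of 0.89 (standard error 0.12, adjusted p = 0.017 from limma). Trib2, a pseudokinase, was called at 0.74. Of 11 dual-specificity phosphatases, 7 had a higher mean, beside 45% of all tested genes. The median was 0.22, falling to 0.11 without ZT15 replicate 3. Dusp4, counted among the effectors too, alone was called, beside 0.189% of all tested genes called higher. Dusp14 differed by 0.60 (adjusted p = 0.312). In the MAP kinase cascade, 14 of 28 tested genes had a higher mean, beside 45% of all tested genes, and the median was 0.01. Of these 28, 0 were called, beside 0.189% of all tested genes called higher and 0.0172% lower. Those with the smallest p were inhibitors of Ras signaling, Spred2 at 0.54 (adjusted p = 0.183), Spred1 at 0.50 (adjusted p = 0.373) and Spry2 at 0.43 (adjusted p = 0.423), each without overlap of the groups. Etv5 lost its call in 3 of the 12 fits without 1 array by the first probe set and in 11 by the second, which also lost it after quantile normalization, and Trib2 in all 12 (adjusted p up to 0.0756, 0.178 and 0.178).

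Several called genes belong to none of these groups. Sfpq, a splicing factor of nuclear paraspeckles, read 10.52, 10.51 and 10.61 in the ZT15 mice, against 9.78, 9.81 and 9.68 in the ZT9 mice, a difference of 0.79 (standard error 0.09, adjusted p = 0.00494 from limma). Osbpl3, an oxysterol-binding protein of membranes, read 8.82, 8.71 and 8.77 in the ZT15 mice, against 7.42, 7.94 and 7.78 in the ZT9 mice, a difference of 1.06 (standard error 0.12, adjusted p = 0.00564 from limma). Both were kept without each array in turn. None of the other 5 probe sets of Sfpq passed, with differences of 0.16 to 0.51. Trim9, a ubiquitin ligase of brain, differed by 0.85 (standard error 0.10, adjusted p = 0.00726 from limma) and lost its call without ZT15 replicate 2 (adjusted p = 0.0567), while its 3 other probe sets differed by -0.01 to 0.15. Dnajc21, a J-domain protein, was called by 2 probe sets at 1.03 and 1.07, and its 2 others differed by 0.24 to 0.79 without passing. Pfkfb3, which makes the activator of the key step of glycolysis, read 7.92, 8.01 and 8.35 in the ZT15 mice, against 7.08, 7.31 and 7.08 in the ZT9 mice, a difference of 0.93 (standard error 0.13, adjusted p = 0.017 from limma). Among the 23 tested genes of glycolysis and lactate transport, 8 had a higher mean, beside 45% of all tested genes, and the median was -0.04.

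Cdyl2, a chromodomain protein, was called by 2 probe sets at 1.00 and 1.20. The second of these, 1432229_a_at, had a low signal, with means of 4.84 at ZT9, 5.01 at ZT3 and 4.86 at ZT21. It passed the level filter of 5 only through its ZT15 mean of 6.04, so it adds no independent support. Iqgap2, a scaffold of the cytoskeleton, was called at 1.32 and Sgsm1, a regulator of small GTPases, at 0.91. Galnt9, an enzyme that starts O-glycans, Htr1b, a serotonin receptor, and Hivep1, a zinc finger factor, were called at 0.81, 0.79 and 0.71. A second Htr1b probe set differed by 0.09 (adjusted p = 0.944). The other 2 of Sgsm1 differed by 0.09 (adjusted p = 0.95) and 0.67 (adjusted p = 0.148). The smallest differences among those called higher were those of St8sia5, a sialyltransferase, at 0.64, Mbp at 0.64 and Kmt2a, a histone H3 methyltransferase, at 0.58. Mbp encodes myelin basic protein. Probe set 1425264_s_at read 9.82, 9.82 and 9.78 in the ZT15 mice, against 9.23, 9.15 and 9.11 in the ZT9 mice, with a narrow spread, but none of the 7 other Mbp probe sets passed, with differences of 0.00 to 0.57 (adjusted p = 0.545 to 1.00). Over the myelin marker list the groups overlapped. The probe set 1442051_at, which several histone H3 genes share, was called at 0.87 and names no single gene. Over the 34 called genes, 24 had more than 1 tested probe set, and of their 42 probe sets without a call 41 had the same direction and 14 passed at 0.20. Mbp and Pfkfb3 lost their call in 3 of the 12 fits without 1 array, Sgsm1 in 5, Dnajc21 in 4 by 1 probe set and 11 by the other, Cdyl2 in 4 and 10, Galnt9 in 6, Htr1b in 8, and Iqgap2, Hivep1, St8sia5 and Kmt2a in 11.

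Downward, 4 probe sets passed. Wdr6, a WD-repeat protein, read 10.58, 10.56 and 10.43 in the ZT15 mice, against 11.61, 11.22 and 11.33 in the ZT9 mice, a difference of -0.87 (standard error 0.12, adjusted p = 0.0173 from limma). Every ZT15 mouse was below every ZT9 mouse, and a second probe set differed by -0.89 (adjusted p = 0.0989). Its mean over the day was 10.26 ± 0.09 at ZT3, 11.39 ± 0.20 at ZT9, 10.52 ± 0.08 at ZT15 and 10.52 ± 0.16 at ZT21 (SD, n = 3 each), so ZT9 was the high point. Zkscan16, a zinc finger protein, read 9.22, 8.94 and 9.19 in the ZT15 mice, against 10.27, 10.17 and 9.75 in the ZT9 mice, a difference of -0.95 (standard error 0.16, adjusted p = 0.0471 from limma). Zfp574, also a zinc finger protein, differed by -0.53 and Cep83os, an opposite-strand transcript, by -0.88. Their second probe sets differed by -0.10 (adjusted p = 0.994) and -0.42 (adjusted p = 0.643). Wdr6 lost its call in 4 of the 12 fits without 1 array, Zkscan16 in 10, Cep83os in 11 and Zfp574 in 12. The 6 further genes with the smallest p in this direction did not pass and differed, by the probe set of smallest p, by -0.88 for A930009L07Rik, -0.66 for Mfsd4a, -0.67 for Slc7a4, -0.50 for Tcta, -0.56 for Rprm and -0.51 for Cryl1 (adjusted p = 0.0539 to 0.110). The brightest probe sets of A930009L07Rik and Cryl1 differed by 0.01 (adjusted p = 1.00) and 0.36 (adjusted p = 0.918), and those of Mfsd4a and Slc7a4 by -0.46 (adjusted p = 0.785) and -0.42 (adjusted p = 0.528).

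Htr2c, the serotonin 2C receptor, had the lowest difference among all genes by their brightest probe set. It read 8.41, 7.71 and 8.06 in the ZT15 mice, against 10.06, 8.92 and 9.18 in the ZT9 mice, a difference of -1.33 (standard error 0.27, adjusted p = 0.127 from limma), and its 2 probe sets differed by -1.33 and -1.13. Htr2c was named after its values were seen. It is strongly expressed in choroid plexus as well as in neurons. The summed intensity of the choroid plexus markers, 94.4% of it from Ttr, was 19024.7, 2457.3 and 2583.7 in the ZT15 mice, against 2197.5, 2002.4 and 30034.2 in the ZT9 mice, so ZT15 replicate 1 and ZT9 replicate 3 were high. For Htr2c, the first of these was the highest of the ZT15 mice and the second lay between the other ZT9 mice. The part of this tissue in the Htr2c level was not tested.

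Cholesterol synthesis was the list with the lowest median. Of 20 tested genes, 3 had a higher mean at ZT15, beside 45% of all tested genes, and the median was -0.13. In this list 0 were called, beside 0.189% of all tested genes called higher and 0.0172% lower. Sqle, an early enzyme of the sterol branch, read 9.21, 9.04 and 9.20 in the ZT15 mice, against 9.69, 9.65 and 9.43 in the ZT9 mice, a difference of -0.44 (standard error 0.13, adjusted p = 0.359 from limma). Nsdhl differed by -0.30 (adjusted p = 0.386), Insig1, an ER protein that restrains sterol synthesis, by -0.41 (adjusted p = 0.448), Stard4, a sterol carrier, by -0.28 (adjusted p = 0.578) and Hmgcs1 by -0.26 (adjusted p = 0.601). The groups did not overlap in 7 of the 20, all of them lower at ZT15, beside 5.98% of all tested genes. The median stayed below 0 in every alternative, at -0.20 to -0.09.

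In the lists of the synapse and of basic cell functions, 0 genes were called by their brightest probe sets, beside 0.189% of all tested genes called higher and 0.0172% lower. The medians are set beside -0.02 and 45% with a higher mean over all tested genes. Glutamate receptors and scaffolds had a median of -0.02 (11 of 26 higher) with Cacng2, an AMPA receptor partner, at 0.48 (adjusted p = 0.141), and voltage-gated channels had -0.01 (17 of 38 higher), with Scn3b at -0.49 (adjusted p = 0.351) and Kcnv1 at 0.46 (adjusted p = 0.443). GABA synthesis and receptors had -0.12 (5 of 16 higher), with Gabra5 lowest at -0.49 (adjusted p = 0.285). Neuropeptides had 0.03 (8 of 16 higher) and glucocorticoid-responsive genes 0.05 (10 of 19 higher), with Cdkn1a among these last at 0.69 (adjusted p = 0.229). Splicing factors and cold-inducible RNA binding proteins had -0.01 (14 of 29 higher), with Tra2a at 0.55 (adjusted p = 0.183) and Cirbp, which rises when the body cools, at -0.38 (adjusted p = 0.37). The respiratory chain (35 of 63 higher), the proteasome (18 of 31) and the aminoacyl-tRNA synthetases (10 of 19) had medians of 0.01, 0.01 and 0.02. Single arrays turned the direction of the first 2 lists, with medians of 0.13 and 0.11 without ZT9 replicate 1 and of -0.12 and -0.09 without ZT9 replicate 3. The plot of the gene lists shows the immediate early factors at its top and cholesterol synthesis at its foot.

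**Figure D4:**
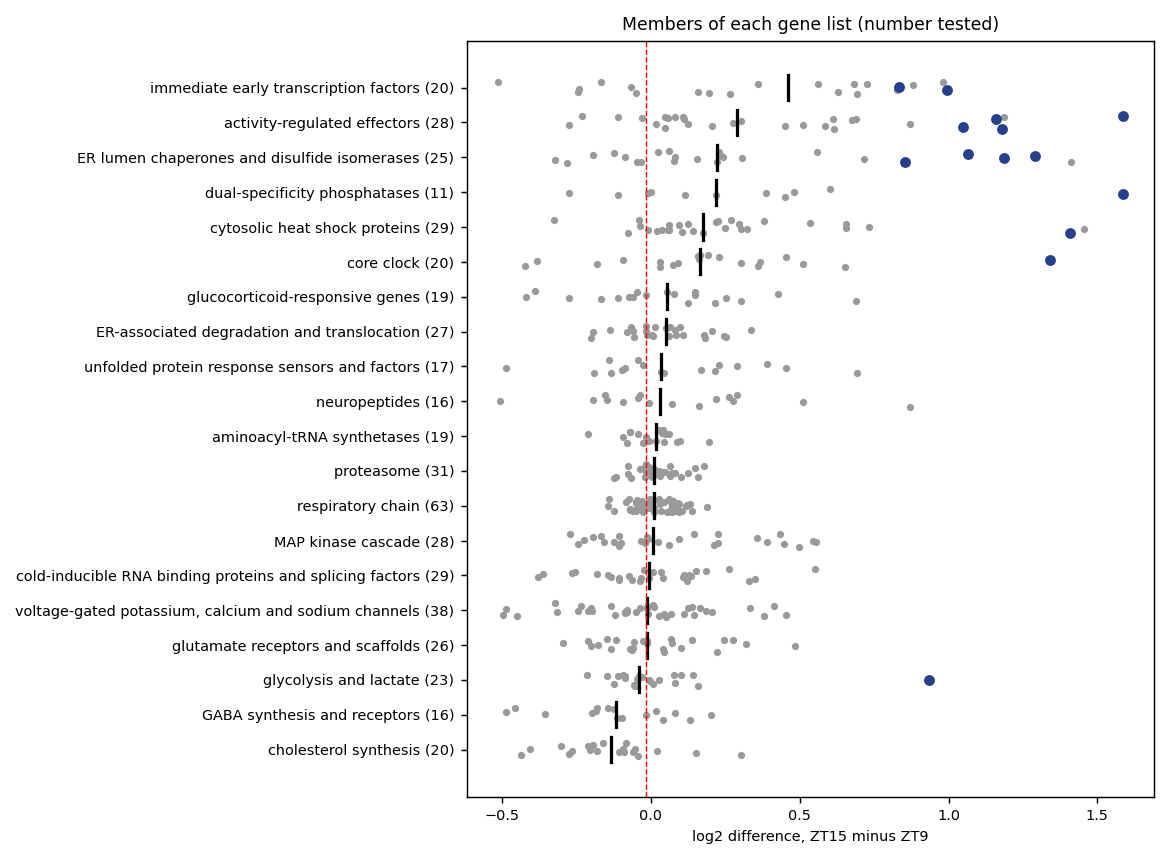
Each point is 1 gene of 1 of the 20 lists (rows, with the number of tested genes), placed by its log2 difference, ZT15 minus ZT9, from its brightest probe set. Blue points passed at an adjusted p under 0.05, black bars are the list medians and the dashed line is the median of all tested genes (-0.02), and the medians run over -0.13 for cholesterol synthesis to 0.46 for immediate early transcription factors (0.13 without ZT15 replicate 3).

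Over all 4 time points, ZT15 was the highest for each of the 37 probe sets called higher, and ZT9 the lowest for 29 of them, ZT3 for 6 and ZT21 for 2. This is a description, since the calls used the ZT15 and ZT9 values. The ZT21 mean was nearer to ZT9 for 27 and nearer to ZT15 for 10, and the ZT3 mean was nearer to ZT9 for 29. Homer1 was 10.56 ± 0.09 at ZT3, 8.05 ± 0.24 at ZT9, 11.41 ± 0.12 at ZT15 and 10.24 ± 0.34 at ZT21 (SD, n = 3 each), so ZT9 was a low point between higher levels. Hspa5 was 11.21 ± 0.14 at ZT3, 10.71 ± 0.04 at ZT9, 11.84 ± 0.02 at ZT15 and 10.71 ± 0.08 at ZT21 and was back at the ZT9 level by ZT21. Camk1g was 7.86 ± 0.13 at ZT3, 7.83 ± 0.07 at ZT9, 8.88 ± 0.09 at ZT15 and 8.13 ± 0.07 at ZT21. Dusp4, by contrast, was 6.07 ± 0.27 at ZT3, 6.36 ± 0.09 at ZT9, 7.95 ± 0.18 at ZT15 and 6.93 ± 0.63 at ZT21, with its low at ZT3. All 4 probe sets called lower had their highest mean at ZT9.

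**Figure D5:**
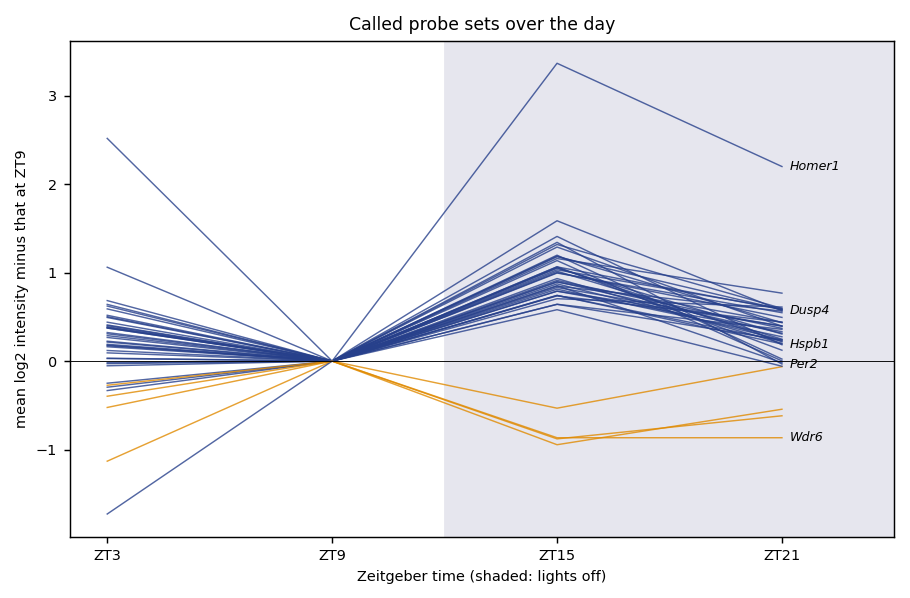
Mean log2 intensity of the 41 called probe sets at ZT3, ZT9, ZT15 and ZT21 (horizontal axis, lights off shaded), each less its own mean at ZT9 (3 mice a point, without error bars). The 37 blue lines peak at ZT15, with Homer1 3.37 above its ZT9 level, and the 4 orange lines peak at ZT9.

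The tissue label was checked against marker genes, of which the cortical excitatory neuron list (Slc17a7, Camk2a and others) summed to intensities of 21481.2 to 22324.6 in the ZT15 mice and 20433.3 to 22156.0 in the ZT9 mice. The groups overlapped for 12 of the 13 marker lists. The exception was the olfactory bulb list, at 1108.8, 1091.7 and 1168.1 in the ZT15 mice, against 2292.0, 1231.1 and 1445.5 in the ZT9 mice, with Reln giving 86.8% of the sum and 3 of its 8 genes above the level filter. Meninges and fibroblast markers had lower means at ZT15 in 8 of 8 tested genes. Dcn, a proteoglycan of connective tissue, read 6.84, 6.72 and 6.84 in the ZT15 mice, against 9.13, 6.82 and 7.75 in the ZT9 mice, a difference of -1.10 (adjusted p = 0.549 from limma) with overlap of the groups. Without ZT9 replicate 1, the highest mouse, it was -0.49. The part of these tissues in the called differences was not tested. In tissue RNA, fewer cells of a type and less RNA per cell cannot be told apart.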

How the data were processed

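RNA of the prefrontal cortex of 12 C57BL/6J mice (3 per time point, ZT3 to ZT21) was measured on Affymetrix Mouse430_v2 arrays, and by the study's methods the replicates are separate mice. The authors deposited GCRMA intensities, not log-transformed, from GeneSpring. MAS5 is also named in the submitters' processing notes. The sources used here give neither scan dates nor batches. The table holds 45101 probe sets. The 64 controls were left out, and values were log2-transformed (none was below 1). The 24075 probe sets with a mean log2 intensity of at least 5 over the 12 arrays were tested. Symbols came from the platform annotation. Of 45037 probe sets, 34945 had 1 symbol, 932 several and 9160 none, and 34741 matched a RefSeq gene by identifier.

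A coefficient per time point was fitted to all 12 arrays by lmFit and eBayes of limma (version 3.58.1, under R 4.3.3). ZT15 minus ZT9 was tested with the two-sided moderated test of limma, with the Benjamini-Hochberg adjustment over the 24075 probe sets. Unless another test is named, every adjusted p comes from this fit. The threshold was 0.05, with 0.20 beside it. The number of arrays limits the precision, and the calculation was tested on simulated data into which changes of known size had been put. The named genes were the 20 called with the largest difference upward and those called downward, with the 10 of smallest p downward in their place where fewer passed, up to 4 of smallest p in each list, all clock genes and those the study names. Other genes were named after their values were seen. The 20 gene lists and 13 marker lists, of whose 676 symbols 619 are on the array, and the choice of the comparison were made with earlier results of these data known. Each gene of a list was taken by its brightest tested probe set, and lists were described without a test. Alternatives were quantile normalization, centring, no filter, a mean of at least 7, an added 16 before log2, array weights, a robust prior with a trend on intensity, the 6 arrays alone, the replicate number as a block and leaving out each array. A fit without ZT15 replicate 3 and ZT9 replicate 1 and a fit with the Actb ratio as a covariate were chosen after seeing the data. Python 3.11.15 with numpy 2.4.6, pandas 2.3.3 and matplotlib 3.10.9 made the tables and plots.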

Additional observations from a re-analysis of the deposited data

How the results depend on the processing

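The direction of each of the 41 called probe sets was the same under every alternative. The other differences printed were followed for chosen probe sets only, and most second probe sets were not among them. Whether the rest reversed was not looked at. Among those followed, that of Per1 reversed, at -0.027 without ZT15 replicate 3 and at -0.026 without both arrays of high Actb ratio. The Per1 difference ran over -0.027 to 0.592 when 1 array was left out. The counts of calls moved with the processing, against 37 higher and 4 lower at an adjusted p of 0.05 and 112 and 33 at 0.20. They were 60 and 14, and 236 and 142, after quantile normalization. Centring gave 57 and 14, and 204 and 109. Without a filter they were 15 and 2, and 70 and 21. With a mean of at least 7, 8 were lower at 0.05, and with an intensity trend 2 were. Array weights gave 60 and 27, and 287 and 387. The 6 arrays alone gave 4 and 0, and 5 and 0. The Actb ratio as a covariate gave 84 and 16, and 495 and 230. Leaving out ZT15 replicate 3 and ZT9 replicate 1, the 2 arrays of high ratio among the 6, gave 15 and 0, and 54 and 6. That fit kept ZT21 replicate 3, whose ratio was 0.88. Leaving out 1 array gave 6 to 25 higher and 0 to 3 lower at 0.05, and 56 to 108 higher and 9 to 67 lower at 0.20. The causes of these moves were not tested. The deviations of same-numbered ZT15 and ZT9 mice from their group means correlated at -0.48, 0.06 and -0.50. Deviations from a mean of 3 mice are tied to each other, so these values cannot tell whether same-numbered arrays shared a batch. The highest correlation, 0.59, was between ZT15 replicate 3 and ZT9 replicate 1, the 2 arrays of high Actb ratio among the 6. With a replicate block, 12 were higher and 0 lower at 0.05, and 65 and 10 at 0.20, and all 12 were among the 41. The medians of the respiratory chain and the proteasome were 0.13 and 0.11 without ZT9 replicate 1, and -0.12 and -0.09 without ZT9 replicate 3. Signal over background limits weak probe sets, and 3 mice a time point limit all of them.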
